A study of Mus musculus with 4 samples.

Results

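The genes described here encode cadherins, catenins and other neuronal adhesion molecules, measured in mouse visual cortex on 4 single-colour Affymetrix arrays. They were taken as every probe set whose single gene symbol in the platform's annotation named a numbered cadherin, a protocadherin, an alpha-, beta- or delta-type catenin symbol, Ncam1, Ncam2, a neurexin, a neuroligin, a contactin, Nrcam or L1cam. This gave 41 probe sets for 29 genes, out of 12488 probe sets and 8252 singly named genes on the array. No probe set carried the symbol of a neurexin or a neuroligin alone, so those 2 families were not measured here. The 29 genes were 11 classical cadherins, 2 other cadherins, 2 protocadherins, 7 catenins and catenin-related genes, and 7 adhesion molecules of the immunoglobulin superfamily. In the counts and medians below, catenins means all 7 of that family, with the related Ctnnbip1 and Ctnnal1 taken in by their symbols.

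All tissue came from wild-type C57Bl6 mice. Per the labels, 5 animals were kept in darkness from birth to postnatal day 42, had 1 eye removed on that day, were then kept for 4 days with a normal cycle of light and dark, and were killed on postnatal day 46. The deprived samples hold the cortex opposite the lost eye, and the non-deprived samples the cortex on the same side as that eye. Both sides therefore share the dark rearing, the operation and the first exposure to light, and the non-deprived side is no untouched control. Tissue was pooled within a side, with 2 arrays per side, and nothing in the sources used here says how the 5 mice were divided over them. The p-values thus rest only on the spread between these 4 arrays, at a gene's own and at other probe sets of like signal. That spread may be technical.

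Classical cadherins are membrane proteins that bind the same cadherin on a neighbouring cell in the presence of calcium. Inside the cell their tail holds beta-catenin, which binds alpha-catenin and through it actin, while catenins of the delta type bind closer to the membrane and keep the cadherin at the surface. N-cadherin and its catenins lie beside the release site and the postsynaptic density of excitatory synapses. NCAM, L1, NrCAM and the contactins carry immunoglobulin domains, and polysialic acid on NCAM is known to bear on the maturation of inhibitory circuits in visual cortex.

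Each array gave 1 MAS5 signal per probe set in arbitrary units. Median signals over all probe sets ran from 189.9 to 246 on the deprived arrays and from 209.6 to 229.6 on the non-deprived arrays. Deprived array 1 correlated least with the rest, at a mean of 0.91 against 0.93 for each of the other arrays. The activity-induced gene Fos, taken as a check of the contrast, had signals of 1107 and 1352 in deprived and 3019 and 3567 in non-deprived cortex (log2 difference -1.38 ± 0.18, SE, n = 2 per group, adjusted p = 0.020 in limma). Markers of cortical neurons were present on all arrays: Tbr1 lay between 3331 and 4396, and Nrgn between 7655 and 10285. Another such marker, Camk2a, was lower on both deprived arrays and is given with the other markers below. For actin, the 5′ signal divided by the 3′ signal, which falls as RNA breaks down, was 0.544 and 0.463 on the deprived arrays and 0.638 and 0.632 on the non-deprived ones. The same quotient for Gapdh was 0.745 and 0.689 against 0.875 and 1.07. These 2 quotients were lower on both deprived arrays. That of the transferrin receptor ran the other way by its means, with 0.269 and 0.474 in deprived and 0.270 and 0.0758 in non-deprived cortex, and the sides overlapped. The part of these quotients in the differences below was not tested.

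No adhesion gene passed the test of deprived against non-deprived cortex. Of the 29 genes, 18 had a mean signal above 142.9, the 40th percentile over all probe sets, and were tested. At an adjusted p under 0.05 in limma 0 of the 18 passed, where 0.0885% of all 5649 tested genes and 0.107% of all tested probe sets did. At an unadjusted p under 0.05 the count was also 0 of 18, beside 4.92% of all tested genes, and the lowest unadjusted p was 0.10, for Ncam1. With the replicate number as a block, 0 passed at either level, beside 0.460% of all tested genes at an adjusted and 8.43% at an unadjusted p under 0.05. The 18 log2 differences (deprived minus non-deprived, on the log2(signal + 60.6) scale) lay between -0.31 and 0.46, with 8 genes lower and 10 higher in the deprived cortex. Their median was 0.033, and that of all tested genes was 0.0057. The median absolute difference was 0.20 for the adhesion genes and 0.18 for all tested genes.

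A missing call does not show that a gene was equal on both sides, so the interval of each difference was computed from the same fit. On the log2(signal + 60.6) scale, the 95% interval lay wholly inside 1 log2 unit in either direction for 13 of the 18 genes. It did so for 65.1% of all tested genes. Because of the added 60.6, a change of 1 unit on that scale is more than 2-fold in signal, the more so for dim genes. The 13 included all 6 tested catenins, all 4 tested immunoglobulin-type genes and 3 of 7 classical cadherins. The half-width of the interval ran from 0.35 for Ctnnd1 to 1.19 (log2) for Cdh13. For Cdh4, Cdh6, Cdh8, Cdh10 and Cdh13 the interval reached past 1 log2 unit. An exact permutation test of 2 arrays against 2 cannot give a two-sided p under 0.333.

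**Figure D1:**
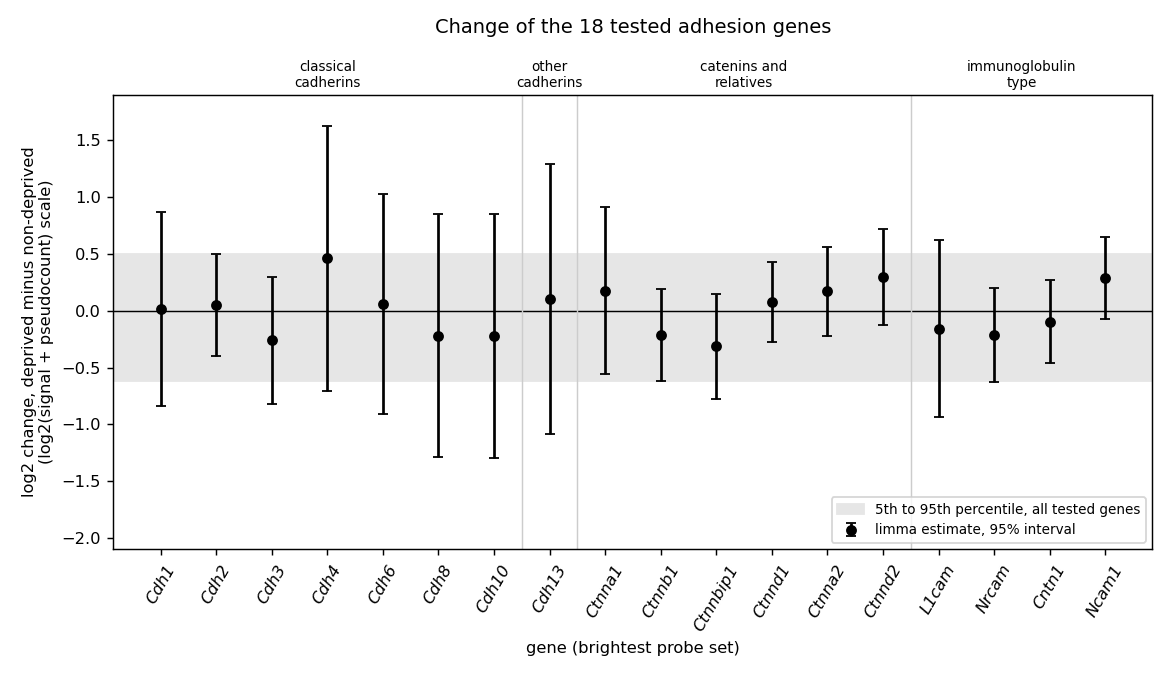
Log2 difference between deprived and non-deprived cortex (vertical axis, log2(signal + 60.6) scale) for each of the 18 tested adhesion genes, grouped by family. Points are limma estimates from 2 arrays per side, bars their 95% intervals, and the grey band the 5th to 95th percentile of all tested genes (-0.62 to 0.50). Every interval crosses 0, and every point lies inside the band.

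In 7 of the 18 genes the 2 deprived arrays lay on 1 side of the 2 non-deprived arrays, 3 lower and 4 higher. Over all tested genes the share was 31.7%, of which 16.4% were lower and 15.4% higher, so a count of 7 is near the background. After scaling the arrays to a common median instead, 1 of the 18 genes was separated in this way, beside 25.9% of all genes. In 0 of the 18 genes did each deprived array differ from each non-deprived array by 1.5-fold or more in 1 direction.

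Among the type I classical cadherins, Cdh2, the N-cadherin of cortical synapses, had a signal of 784 and 948 on the deprived arrays and of 818 and 844 on the non-deprived ones. The non-deprived values lay between the deprived values, and the log2 difference was 0.05 ± 0.20 (SE, n = 2 per group), with a 95% interval from -0.40 to 0.50. Cdh4, or R-cadherin, had 140.2 and 242 in deprived against 114.5 and 122.9 in non-deprived cortex. The groups did not overlap, but deprived array 2 stood well above the other 3. The difference of 0.46 ± 0.53 was the largest of the 18, and its interval reached from -0.71 to 1.63. Cdh4 passed the limit for testing only through the deprived group, whose mean was 191 against 118.7 in the non-deprived cortex.

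Cdh3, or P-cadherin, had 445 and 563 in deprived and 716 and 522 in non-deprived cortex, a difference of -0.26 ± 0.26 (SE). The groups overlapped, with non-deprived array 1 the highest. Cdh1 encodes E-cadherin, the cadherin of epithelia, and lies directly beside Cdh3 in the order of protein-coding genes in RefSeq's GRCm38.p6 annotation. Its signals were 1003 and 353 in deprived and 776 and 454 in non-deprived cortex. Here the arrays numbered 1 were high and the arrays numbered 2 low on both sides, so the difference between sides was 0.02 ± 0.39. Cdh1 and the next 2 genes with a wide spread, Cdh6 and Cdh13, were singled out with their values in view.

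The type II cadherins differ from type I in the pocket that binds the partner, and 3 of them were bright enough to test. Cdh8 had 130.1 and 182 in deprived and 233 and 153 in non-deprived cortex, a difference of -0.22 ± 0.49 (SE) with overlapping groups. Cdh10 had 153 and 144 against 158 and 212, a difference of -0.22 ± 0.49 in which both deprived arrays were lower. Cdh6 had 429 and 150.1 in deprived and 268 and 229 in non-deprived cortex, and the 2 deprived arrays enclosed the others. Its difference was 0.06 ± 0.44. Cdh6, Cdh9 and Cdh10 follow one another in the same annotation with no other protein-coding gene between them, as do Cdh8, Cdh11 and Cdh5, but Cdh9, Cdh11 and Cdh5 were too dim to test.

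Over the 7 tested classical cadherins 3 were lower and 4 higher, with a median of 0.016. The median was 0.098 in the pair of arrays numbered 2 and -0.038 in the pair numbered 1. Without deprived array 1 it was -0.11. The 1 tested cadherin outside the classical group was Cdh13, or T-cadherin, which is held in the membrane by a lipid anchor and has no tail for catenins. It had 162 and 251 in deprived and 349.6 and 85.7 in non-deprived cortex. The non-deprived arrays were the highest and the lowest of the 4, and the log2 difference was 0.10 ± 0.54, although the signal averaged 206 on the deprived arrays and 218 on the others. The difference was -0.64 without non-deprived array 2.

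**Figure D2:**
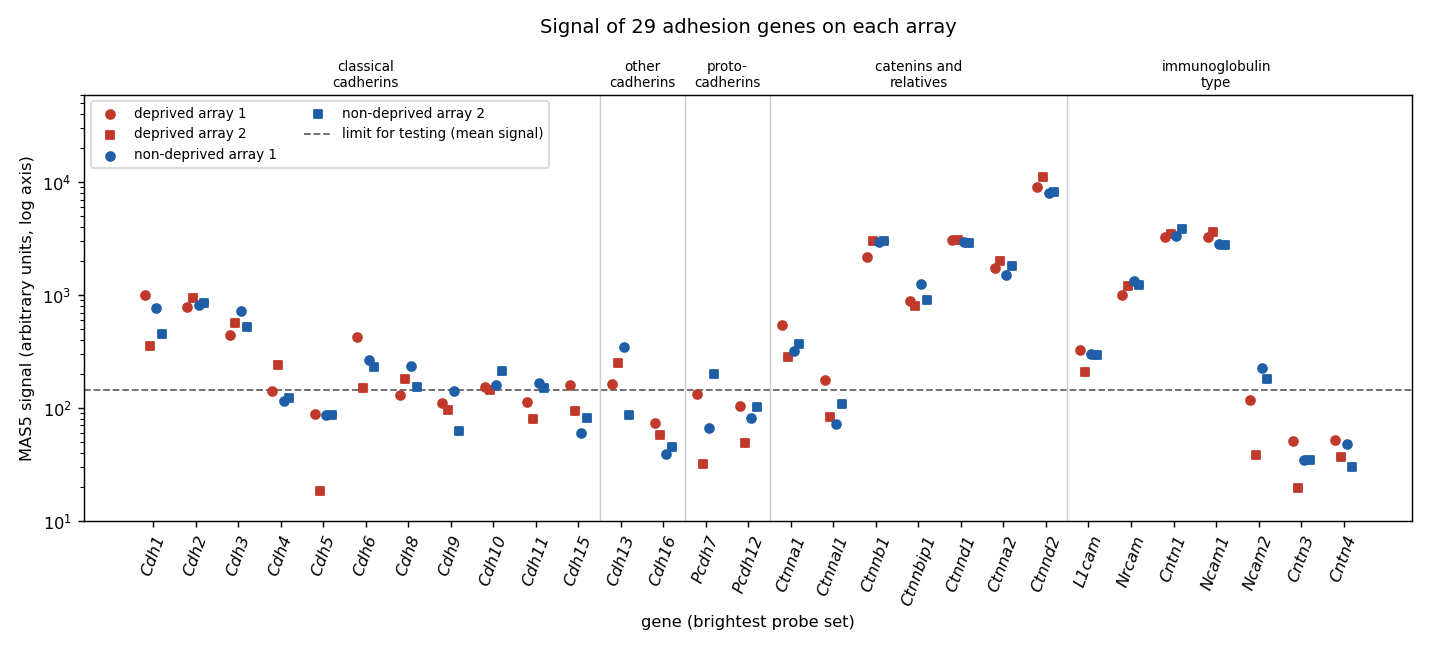
MAS5 signal on each array (vertical log axis, arbitrary units) for the brightest probe set of each of the 29 adhesion genes; red marks are deprived and blue marks non-deprived arrays, circles arrays numbered 1 and squares arrays numbered 2. The dashed line is the limit of 142.9 that a gene's mean had to reach for testing; signals of different probe sets cannot be compared as levels. The 4 marks lie close together for bright genes such as Ctnnd1 and Cntn1 and spread widely for Cdh1, Cdh6, Cdh13 and the genes near the line.

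The intervals of the 6 tested catenins were narrower than those of most cadherins, with half-widths from 0.35 to 0.73 (log2). Ctnnb1, beta-catenin, which links cadherins to alpha-catenin and also serves as the transcriptional signal of the Wnt pathway, had 2194 and 2991 in deprived and 2955 and 3018 in non-deprived cortex. Deprived array 1 stood below the other 3, which lay close together. The difference was -0.22 ± 0.18 (SE, n = 2 per group), with an interval from -0.62 to 0.19, and 0.0024 without deprived array 1. Ctnnbip1, whose small protein blocks the binding of beta-catenin to TCF factors, had 884 and 796 against 1243 and 900.0. Both deprived arrays were lower, deprived array 1 only slightly lower than non-deprived array 2. Its difference was -0.31 ± 0.21, the lowest of the 18 genes, with an interval from -0.78 to 0.15.

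Ctnna2, the alpha-catenin of neurons, had 1751 and 1990 in deprived and 1505 and 1816 in non-deprived cortex. The groups overlapped, and on each side the array numbered 2 was the higher. The difference was 0.17 ± 0.18 (SE). Ctnna1, the alpha-catenin found in most tissues, had 542 and 282 against 319 and 367, with the deprived arrays outside the non-deprived ones. It gave 0.18 ± 0.34, and -0.23 without deprived array 1.

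Ctnnd1, the delta-type catenin that shields cadherins from removal from the surface, had 3111 and 3059 in deprived and 2974 and 2891 in non-deprived cortex. The groups did not overlap, yet the difference was 0.07 ± 0.16 (SE), with an interval from -0.28 to 0.42. Ctnnd2, its relative in neurons and dendritic spines, had 9021 and 11187 against 8117 and 8212. Both deprived arrays were higher, deprived array 2 by the wider margin. The difference was 0.30 ± 0.19, with an interval from -0.13 to 0.72 and an adjusted p of 0.99 in limma. Of the 6 tested genes of this family, Ctnnbip1 included, 2 were lower and 4 higher, and their median was 0.12. Ctnnbip1, which is no catenin itself, was 1 of the 2 lower.

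Among the immunoglobulin-type molecules, Ncam1, whose protein carries polysialic acid, had 3258 and 3659 in deprived and 2834 and 2793 in non-deprived cortex. Both deprived arrays were higher, by 1.22-fold on average. The log2 difference was 0.29 ± 0.16 (SE, n = 2 per group), with an interval from -0.07 to 0.65, an unadjusted p of 0.10 and an adjusted p of 0.98 in limma. In the 4 pairs of arrays it ran from 0.20 to 0.38.

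Cntn1, a lipid-anchored contactin of axons and glial contacts, had 3263 and 3464 in deprived and 3352 and 3860 in non-deprived cortex. The groups overlapped, and the difference was -0.10 ± 0.17 (SE), with an interval from -0.46 to 0.27. Nrcam, which takes part in axon growth and at nodes of Ranvier, had 994 and 1205 against 1346 and 1218. Both deprived arrays were lower, deprived array 2 by a small margin, and the difference was -0.21 ± 0.19, with an interval from -0.63 to 0.20. L1cam, the axonal molecule that gives the L1 family its name, had 326 and 208 against 301 and 297. The deprived arrays lay on both sides of the non-deprived pair, and the difference was -0.16 ± 0.36. The median of these 4 genes was -0.13, with 3 lower and 1 higher, and it was -0.017 without deprived array 2.

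For 9 of the 29 genes the array held more than 1 probe set, and for 4 of these more than 1 was bright enough to test. For Ctnnd1 the dimmer probe set gave 0.13 ± 0.27 (SE), beside 0.07 at the brighter. For Ctnna2 the other 2 tested probe sets gave 0.13 ± 0.32 and 0.40 ± 0.55, beside 0.17 at the brightest. The dimmest of its 3 probe sets had 446 and 135.7 in deprived and 291 and 102.3 in non-deprived cortex, so that the arrays numbered 1 stood above the arrays numbered 2 on both sides, the reverse of the order at the brightest probe set. For these 2 genes all tested probe sets had the same sign, although none differed from 0 beyond its error.

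Ncam1 behaved differently. Its second tested probe set had 541 and 425 in deprived and 579.9 and 435.5 in non-deprived cortex, a difference of -0.06 ± 0.27 (SE), and its dimmest, at 16.1 to 45.3, was too dim to test. The higher signal in deprived cortex was thus seen at 1 of its 3 probe sets. For Cdh3 the second probe set gave -0.02 ± 0.43, from 191 and 216 in deprived and 177 and 241 in non-deprived cortex. The positions of the probes were not analysed here, so it is not known whether probe sets of 1 gene read the same transcript forms.

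**Figure D3:**
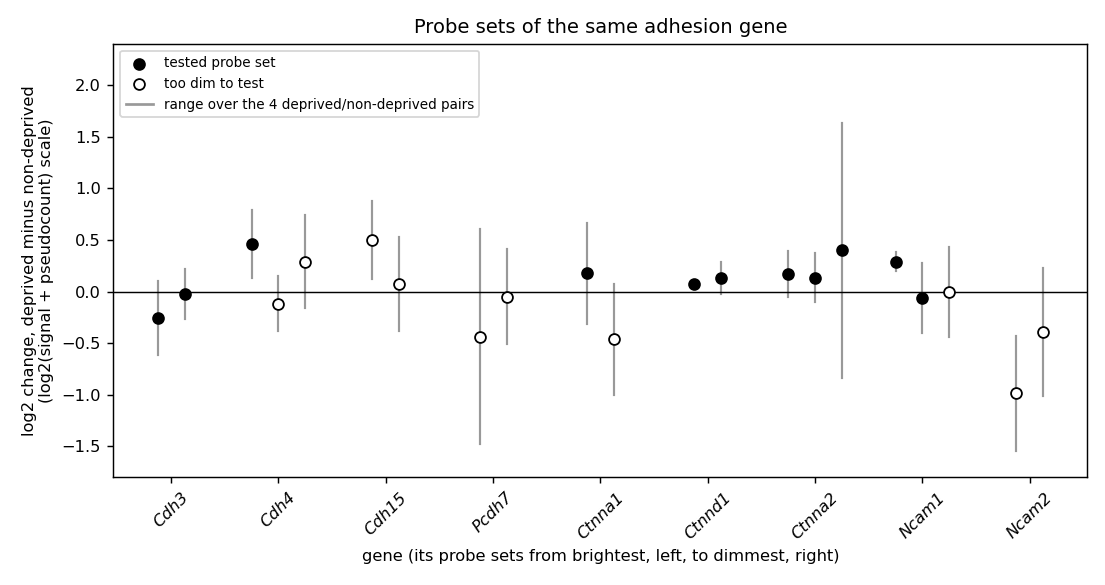
Log2 difference between deprived and non-deprived cortex (vertical axis, log2(signal + 60.6) scale) at each probe set of the 9 adhesion genes with more than 1; each gene's probe sets run from brightest on the left to dimmest on the right. Filled points were tested, open points were too dim, and grey lines span the differences of each deprived from each non-deprived array. The probe sets of Ctnnd1 and of Ctnna2 lie above 0, while those of Ncam1, Cdh4 and Ctnna1 lie on both sides of it.

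The 11 genes too dim to test were Cdh5, Cdh9, Cdh11, Cdh15, Cdh16, Pcdh7, Pcdh12, Ctnnal1, Ncam2, Cntn3 and Cntn4. They include genes best known outside cortical neurons: Cdh5 and Pcdh12 of blood vessel endothelium, Cdh15 of muscle and Cdh16 of kidney. The 2 protocadherins were both among them, so no protocadherin named singly could be compared. Signals of the 11 genes ran from 18.2 to 228 on single arrays. Just below the limit stood Ncam2 with a mean of 141.2, and just above it Cdh4 with 154.9.

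Ncam2, a relative of Ncam1 known from olfactory axons, had 118.3 and 38.2 in deprived and 228 and 180.1 in non-deprived cortex. Both deprived arrays were lower, and without a filter on dim probe sets the difference was -0.99 ± 0.53 (SE), with an unadjusted p of 0.085 and an adjusted p above 0.99 in limma. Its second probe set had 36.6 and 16.5 against 94.8 and 22.2, with overlapping groups. Cdh11, a type II cadherin, had 113.2 and 79.4 against 164.8 and 148.9, both deprived arrays lower (-0.48 ± 0.51). Ncam2 and Cdh11 exceeded the limit on the non-deprived side only. In the other direction, both deprived arrays were higher for Cdh15 (0.50 ± 0.51) and Cdh16 (0.29 ± 0.41), from 159.8 and 93.9 against 59.7 and 81.7, and from 73.7 and 57.3 against 39.2 and 45.3. The second probe set of Cdh15 had 105.3 and 54.8 against 89.7 and 54.7, with overlapping groups. The other 7 dim genes overlapped between the sides, among them the endothelial Cdh5, with 89.0 and 18.2 against 85.8 on both non-deprived arrays. Of the 11 dim genes 2 were thus separated lower and 2 higher. Without a filter 29.4% of all genes were separated in either direction, so these counts are near the background. At signals this low the added 60.6 makes up much of each value, so the log2 differences understate any change.

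Genes that work with these molecules were read from 6 lists covering 74 symbols, of which 48 stood singly on the array and 45 were bright enough to test. In limma 0 of the 45 passed at an adjusted p under 0.05, and 2 were past an unadjusted p of 0.05, beside 4.92% of all tested genes. Their median difference was 0.048, with 16 lower and 29 higher, beside 0.0057 for all tested genes.

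The 11 tested binding proteins of neurexins and neuroligins had the one negative median, -0.075, with 8 lower and 3 higher. Dlg4, or PSD-95, the scaffold of excitatory synapses to which neuroligins bind, had 3934 and 4056 in deprived and 3060 and 2987 in non-deprived cortex. Both deprived arrays were higher, at 0.39 ± 0.16 (SE), with an unadjusted p of 0.032 and an adjusted p of 0.84 in limma. Cask, the scaffold that binds neurexins from within, had 878 and 737 against 1009 and 1096, a difference of -0.36 ± 0.20. Dlg4, Cask and the partner genes named below were picked with their values in view.

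The 8 tested junction proteins bound to catenins had a median of 0.16, with 6 higher. Among them Jup, or plakoglobin, a close relative of beta-catenin, gave 0.22 ± 0.22 (SE), and Vcl, or vinculin, gave 0.32 ± 0.29. The 8 tested genes of beta-catenin turnover and its targets had a median of 0.045. Apc, a scaffold of the complex that degrades beta-catenin, gave -0.58 ± 0.31, from 351 and 343 in deprived and 399.6 and 746 in non-deprived cortex. The Wnt targets Axin2 and Ccnd1 gave -0.25 ± 0.36 and 0.05 ± 0.22. The 4 tested enzymes of cadherin and neurexin shedding had a median of 0.055, and Adam10, which cuts N-cadherin, gave 0.12 ± 0.32.

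Of the 7 tested partners of NCAM and L1, 5 were higher, with a median of 0.092. The highest was Fgfr1, with 582 and 439 in deprived and 343 and 309 in non-deprived cortex. Both deprived arrays were higher, and its difference was 0.55 ± 0.28 (SE, adjusted p = 0.94 in limma). The enzymes that add polysialic acid to NCAM differed in sign: St8sia2 gave -0.60 ± 0.39 (SE) and St8sia4 0.45 ± 0.38. St8sia2 had 194 on deprived array 1 and 561 to 620 on the other 3 arrays. The 7 tested genes of the list of other adhesion molecules had log2 differences from 0.0096 to 0.37. The lowest was that of Cntnap1, a contactin partner beside nodes of Ranvier, whose signal averaged 376.8 on the deprived arrays and 397.6 on the others, so that the linear means ran the other way. Icam5, or telencephalin, of forebrain dendrites had 3410 and 2991 against 2535 and 2373, a difference of 0.37 ± 0.17 with an unadjusted p of 0.045 and an adjusted p of 0.91 in limma.

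**Figure D4:**
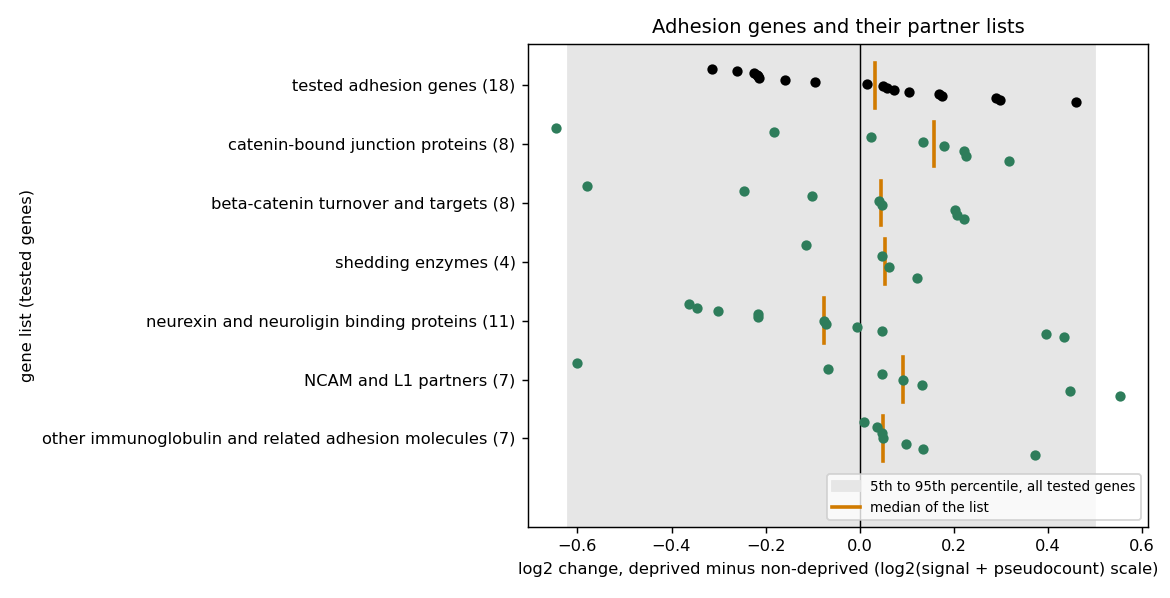
Log2 difference between deprived and non-deprived cortex (horizontal axis, log2(signal + 60.6) scale) for the 18 tested adhesion genes (black) and the tested genes of the 6 partner lists (green), 1 point per gene, with the number of genes in brackets. Orange bars mark each list's median, from -0.075 for neurexin and neuroligin binding proteins to 0.16 for catenin-bound junction proteins, and the grey band spans the 5th to 95th percentile of all tested genes. The adhesion genes lie on both sides of 0 inside the band.

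Marker levels of other cells were set beside these values, since in pooled tissue fewer cells of a type and less RNA per cell cannot be told apart. Summed signals of the 5 oligodendrocyte and myelin markers on the array were 12402 and 11174 on the deprived and 10395 and 9156 on the non-deprived arrays, so both deprived arrays were higher. Of the 4 tested, 3 were higher, with a median of 0.27. Much of the gap between the sums lay in Mobp, with 4854 and 4574 in deprived against 3707 and 3079 in non-deprived cortex. Its difference was 0.47 ± 0.17 (SE, adjusted p = 0.69 in limma). Mog was also higher on both deprived arrays, while Mbp and Mag overlapped between the sides. The 5 markers of striatum, thalamus and hippocampus summed to 3241 and 2421 in deprived and 2365 and 2254 in non-deprived cortex. All 4 tested were higher, with a median of 0.16, but only Penk of these was separated between the sides. The median was 0.39 in the pair of arrays numbered 1 and -0.078 in the pair numbered 2. Drd2 and Prkcd were highest on deprived array 1 and lowest on deprived array 2. Prox1 of this list was too dim to test. It had 111.7 and 80.7 in deprived against 37.6 and 11.5 in non-deprived cortex, so it too was separated between the sides. The 4 astrocyte markers summed to 2925 and 2660 against 3098 and 3036, lower on both deprived arrays. The glutamate transporter Slc1a2 carried this fall, with 362 and 178 in deprived and 570 and 576 in non-deprived cortex, a difference of -0.997 ± 0.33 (SE, adjusted p = 0.58 in limma), while Aqp4, Gfap and S100b lay between -0.03 and 0.04. The 6 endothelial and mural markers summed to 1389 and 1131 against 1013 and 1078, higher on both deprived arrays. Of the 3 tested, 2 were higher, with a median of 0.20, but the sides overlapped for each. The median was -0.13 in the pair of arrays numbered 2. Flt1 had 525 and 211 in deprived and 267 and 237 in non-deprived cortex, so only deprived array 1 stood high. Of the 6 inhibitory neuron markers 5 were lower, with a median of -0.18. The interneuron peptide Vip had 80.4 and 88.5 in deprived and 313 and 230 in non-deprived cortex, a difference of -1.19 ± 0.51 (SE, adjusted p = 0.89 in limma), so the deprived values lay below the limit for testing. Sums of the inhibitory neuron markers overlapped between the sides. So did those of the excitatory neuron, microglia, red blood cell and choroid plexus lists, whose medians were -0.023, -0.012, 0.13 and -0.072. On the excitatory list Camk2a was lower on both deprived arrays, with 842 and 886 in deprived and 1154 and 1604 in non-deprived cortex. Its difference was -0.62 ± 0.21 (SE, adjusted p = 0.59 in limma). Cux2, Neurod6, Nrgn and Tbr1 of that list overlapped between the sides and lay between -0.20 and 0.14. The choroid plexus genes Ttr and Kl were too dim to test. The part of these shifts in the values of the adhesion genes was not tested.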

How the data were processed

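Visual cortex RNA from 2 deprived and 2 non-deprived samples was measured on 4 arrays, 1 colour each. The authors deposited linear intensities, 1 for each probe set, and the submitters' processing notes name MAS5 as the tool. Its version, the detection calls and the target of the scaling are not given in the sources used here. Their 2% trimmed mean was about 500.3 on each array. Gene symbols came from the platform's annotation table; an update by Entrez identifier against a RefSeq table (GRCm38.p6) changed no adhesion gene.

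Arrays were scaled to a common 2% trimmed mean, 60.6 (the 20th percentile of mean signals) was added and log2 taken. Controls and probe sets with a mean under 142.9 (the 40th percentile) were left out, which kept 7458, of which 23 of the 41 described. The 2 sides were compared with lmFit and eBayes (trend option) of limma 3.58.1, run in R 4.3.3, in a two-sided test, adjusted by Benjamini-Hochberg over all 7458 at a threshold of 0.05. There were 2 residual degrees of freedom, and 11.6 with the prior. Each SE, interval and p thus rests largely on the spread of other probe sets of like signal. The small number of arrays limits precision. The fit was tested on simulated data. The brightest probe set stood for a gene. No test was run over a list of genes.

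The series' design text speaks of additional comparisons across animals, but nothing in the sources used here says that arrays of one number share animals. Arrays of one number deviated from their group means together, with r = 0.27, and the cause of this was not tested. The numbers were read as pairs, and a fit with the number as a block was run beside the main one. Symbol rule, lists and tests were chosen with earlier results of these data known. Adhesion genes described whatever their values were Cdh2, Ctnna1, Ctnna2, Ctnnb1, Ctnnd1, Ctnnd2, Ncam1, Ncam2, Cntn1, Nrcam, L1cam and any tested protocadherin (the neurexins, neuroligins and Cntn2 of the same rule had no probe set of their own), joined by the 8 largest differences and every gene with more than 1 tested probe set. Alternatives were other scalings, pseudocounts, filters, variance models, a mean over probe sets and leaving out each array.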

Additional observations from a re-analysis of the deposited data

How the results depend on the processing

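In every setting run, 0 adhesion genes were called at an adjusted p under 0.05, and 0 at 0.2, although 3 of 18 were past an unadjusted p of 0.05 without deprived array 1 (beside 9.35% of all tested genes), 2 without deprived array 2 (12.5%) and 1 after quantile normalization (5.77%), against 0 (4.92%) in the main setting. The replicate block changed no call among them. Over all genes, the 8 probe sets called became 40 with the replicate block, 1 after quantile normalization, 3 with a common median, 0 without the variance trend (390 at an unadjusted p under 0.05), 27 at an adjusted p under 0.2, and 5 to 90 with 1 array left out; beyond the looser threshold and fewer arrays, the cause was not tested. The count of 7 adhesion genes with separate groups became 1 with a common median, 11 of 29 without a filter (more genes tested; 29.4% of all genes), and 10 to 16 of 18 with 1 array left out (fewer arrays had to agree; 58.3% to 75.1% of all genes), so the last are near the background. The median of all 18 ran from -0.050 to 0.034 with 1 array left out, that of classical cadherins from -0.11 to 0.029, of catenins from 0.031 to 0.16 and of immunoglobulin-type genes from -0.15 to -0.017. Without a filter the catenin median was 0.17, and that of immunoglobulin-type genes -0.096, the latter also with a filter at the 60th percentile; these settings change which genes are tested. Of 228 values of single genes under the alternatives, 216 kept the sign of the main fit. Many of these could not turn. Filters, the variance model and the replicate block leave a gene's estimate unchanged, as does the mean for genes with 1 tested probe set. The 12 values that turned all came with 1 array left out, and 7 of them moved by less than the standard error. The other 5 were Cdh1 (-0.66), Cdh6 (-0.55), Ctnna1 (-0.23) and Ctnnb1 (0.0024) without deprived array 1, and Cdh13 (-0.64) without non-deprived array 2; with 1 array left out these genes reached 0.70, 0.67, 0.58, -0.43 and 0.85 at the other end. Updated symbols left the count at 29 genes.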

Other observations

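The array also held 8 probe sets whose annotation joined 9 to 14 genes of the protocadherin alpha cluster, neuronal cadherin relatives whose many variable exons share a common constant part. They name no single gene and were kept apart from the 29 genes above. Of these, 7 were bright enough to test, and in limma 0 passed at an adjusted p under 0.05, with a lowest adjusted p of 0.89. Their log2 differences (deprived minus non-deprived) ran from -0.80 to 0.29, with 3 lower, 4 higher and a median of 0.067. The lowest was past an unadjusted p of 0.05 in limma, the 1 probe set of the 7 to do so, beside 405 of all 7458 tested probe sets. Its signals were 192 and 473 in deprived and 570 and 590 in non-deprived cortex. The brightest had 3904 and 5567 against 3886 and 4367, a difference of 0.18 ± 0.20 (SE). The next lowest had 1235 and 1900 in deprived against 1972 and 2222 in non-deprived cortex, a difference of -0.43 ± 0.21. At these 2 lowest probe sets both deprived arrays were lower, as they were at 1276 of all 7458 tested probe sets. Probe sets of this cluster thus differed in sign among themselves, and none passed after adjustment over all tested probe sets.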
